A study of Arabidopsis thaliana with 8 samples.

Results

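Iron removal in copper-starved leaves was followed by setting double deficiency against copper deficiency in rosette leaves of Arabidopsis thaliana Col-0, the common laboratory accession. The comparison takes 4 of the 8 libraries of the study, 2 per group, chosen by their labels. Double deficiency plants stood for 10 d in hydroponic medium with neither FeEDTA, the iron source, nor CuSO4, and with 10 µM bathocuproinedisulfonic acid disodium salt, a chelator that binds copper. Copper deficiency plants had the same chelator and no CuSO4 but kept FeEDTA, so absence of copper and presence of chelator were common to both groups. The 4 libraries of the remaining groups, iron deficiency (CuSO4 present, no FeEDTA) and control (both present), gave the same removal of iron in copper-fed leaves. All plants had grown 12 d on soil and 10 d in complete medium with 1 µM CuSO4, and leaves were taken 4 h after light onset. The labels also give an age of 20 d, which does not match these periods. Whole rosettes were sampled, so every leaf cell type contributes, and fewer cells of a type cannot be told apart from less RNA per cell. No source states that replicates were separate cultures or plants, so p-values measure only the spread between these libraries, which may be technical. Each library listed 38093 gene entries, and most weight is given to the 19822 nuclear genes (chromosomes 1 to 5, span of at least 300 bp) that stood above 0 FPKM in all 8 libraries. FPKM counts fragments relative to transcript length and library size.

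Iron in leaves sits mainly in chloroplasts, where photosystem I, the cytochrome b6f complex, ferredoxin and iron superoxide dismutase need it as iron-sulfur clusters, heme or a bound ion. When iron is short, the basic helix-loop-helix factors of subgroup IVc switch on those of subgroup Ib (BHLH38, BHLH39, BHLH100 and BHLH101) and the small IMA peptides, which sustain uptake and redistribution of iron, while BRUTUS-type ubiquitin ligases hold the response in check and ferritins, the iron stores, are shut down. Copper is needed by plastocyanin, by copper/zinc superoxide dismutases and by cytochrome oxidase. When copper is short, the regulator SPL7 switches on copper uptake, the iron superoxide dismutase FSD1 and the microRNA miR398, which targets transcripts of copper/zinc superoxide dismutases and of their chaperone CCS. The comparison asks what removal of iron does to leaf transcripts when copper is absent already.

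The 5 strongest regulators among the risers and FSD1, which had the deepest fall, are shown with the 250 bases upstream of their annotated starts, read from the reference genome TAIR10.1. Capitals mark CACGTG, the E-box variant bound by many basic helix-loop-helix factors, and GTAC, the core of the SPL7 binding element. Both motifs are palindromes, so both strands were searched at once, and they do not overlap each other.
BHLH38: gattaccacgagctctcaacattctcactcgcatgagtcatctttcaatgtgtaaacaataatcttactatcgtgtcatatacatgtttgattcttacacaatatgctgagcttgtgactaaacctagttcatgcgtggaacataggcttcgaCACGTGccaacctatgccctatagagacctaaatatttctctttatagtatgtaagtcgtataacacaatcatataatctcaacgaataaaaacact
BHLH39: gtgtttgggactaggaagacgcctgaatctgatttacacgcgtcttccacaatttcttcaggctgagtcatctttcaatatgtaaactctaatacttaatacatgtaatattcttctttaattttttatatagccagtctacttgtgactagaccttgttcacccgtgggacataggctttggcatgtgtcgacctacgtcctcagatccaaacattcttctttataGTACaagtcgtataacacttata
BHLH100: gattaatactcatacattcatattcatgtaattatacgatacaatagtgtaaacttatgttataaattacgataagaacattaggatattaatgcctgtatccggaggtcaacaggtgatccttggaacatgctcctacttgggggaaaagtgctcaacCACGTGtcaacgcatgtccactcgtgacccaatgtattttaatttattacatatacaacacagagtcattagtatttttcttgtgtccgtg
IMA1: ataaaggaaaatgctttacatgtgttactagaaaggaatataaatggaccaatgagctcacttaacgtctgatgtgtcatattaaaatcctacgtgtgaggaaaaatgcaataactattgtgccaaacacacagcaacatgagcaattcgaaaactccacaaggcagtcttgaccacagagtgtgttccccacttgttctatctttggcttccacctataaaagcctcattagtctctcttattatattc
IMA2: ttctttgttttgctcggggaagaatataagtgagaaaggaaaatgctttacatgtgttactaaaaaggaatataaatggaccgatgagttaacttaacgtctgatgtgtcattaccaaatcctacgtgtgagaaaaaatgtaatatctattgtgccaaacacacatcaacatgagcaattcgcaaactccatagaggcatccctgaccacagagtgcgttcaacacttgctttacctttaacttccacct
FSD1: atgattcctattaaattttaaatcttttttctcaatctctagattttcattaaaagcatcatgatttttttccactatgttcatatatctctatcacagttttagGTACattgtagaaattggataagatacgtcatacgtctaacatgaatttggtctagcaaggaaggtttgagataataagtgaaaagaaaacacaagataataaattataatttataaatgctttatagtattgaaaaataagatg

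These windows lie at chr3:21085246-21085495 (minus strand), chr3:21087711-21087960 (minus), chr2:17199455-17199704 (minus), chr1:17385457-17385706 (plus), chr1:17382748-17382997 (plus) and chr4:12887012-12887261 (minus). CACGTG was found once each before BHLH38 (last base at -92 from the start) and BHLH100 (-86), and in 6.49% of 27443 windows of the same length before all genes. GTAC was found once each before BHLH39 (-20) and FSD1 (-142), and in 34.3% of these windows. The IMA1 and IMA2 windows hold neither motif, but they share a run of 28 bases, aaaggaaaatgctttacatgtgttacta, and their genes are neighbours with 1876 bases between them. BHLH38 and BHLH39 are also neighbours, with 1144 bases between them, and their windows share a run of 16 bases, tgagtcatctttcaat. A match is a description of these letters, not evidence that a factor binds there.

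Of 19171 genes tested (at least 1 FPKM in at least 2 libraries), 7552 were higher in double deficiency than in copper deficiency and 1227 lower at an adjusted p under 0.05 (limma on log2(FPKM + 1), adjusted by Benjamini and Hochberg), that is 39.4% and 6.40%. Among the 17243 of these genes that carry most weight, 7141 were higher (41.4%) and 1123 lower (6.51%). The split moved with the scaling: the median gene was 0.41 higher on the log2 scale, and scaling by median ratios moved that median by -0.39 and quantile scaling by -0.46. With these scalings the split became 3200 higher (16.7%) and 3113 lower (16.2%), or 3047 higher (15.9%) and 3529 lower (18.4%). Scaling to the summed FPKM of nuclear protein-coding genes gave 9081 higher (47.4%) and 1043 lower (5.44%). Called under all 4 scalings were 2732 genes higher (14.3%) and 1018 lower (5.31%), and changes of gene lists are read below against these shares and against the all-gene median of 0.41. Log2 differences are double minus copper deficiency and understate changes of genes near or under 1 FPKM. Statements that the groups do not overlap describe the values of the genes named, and the share of all genes so separated was not counted. Both double deficiency libraries lay above all remaining libraries in 34.0% of the 16812 coding genes tested that carry most weight. Lying above copper deficiency is thus common in itself.

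Relative depth, read from the authors' bounds in 15986 genes with the deepest library set to 1, was 0.915 and 0.939 in double deficiency and 0.757 and 0.929 in copper deficiency. Genes at 1 FPKM or more numbered 18396 and 18049 in double deficiency, against 16949 and 16888 in copper deficiency. Makeup differed between the groups. Nuclear entries other than coding genes took 17.7 and 13.6% of FPKM in double deficiency, against 10.0 and 6.33% in copper deficiency. Mitochondrial transcripts took 0.305 and 0.598% in double deficiency, against 0.0114 and 0.00324% in copper deficiency. The second copper deficiency library also stood apart: chloroplast transcripts took 0.278% of its FPKM, against 5.83 to 11.2% in the other 7 libraries. Without it, 6413 genes were higher and 951 lower. Without double deficiency replicate 1 or 2, higher genes numbered 4424 or 4940 and lower genes 750 or 711. Of the 161 named genes called in this comparison, 137 remained called whichever of the 8 libraries was left out, and 132 of them remained so under every other alternative tried as well. These 161 genes were picked mostly by the size of their change. Further members given by value below, such as BHLH115 and SGR1, are not among them. The part that library makeup plays in the calls was not tested.

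The iron regulators made the steepest rises. BHLH39, a subgroup Ib factor at chr3:21086390-21087710, reached 385 and 402 FPKM in double deficiency, against 0.338 and 0.118 FPKM in copper deficiency (log2 difference 8.33 ± 0.12 (SE), limma adjusted p = 1.02e-06). BHLH100, of the same subgroup at chr2:17198037-17199454, stood at 553 and 584 FPKM in double deficiency, against 0.269 and 2.13 FPKM in copper deficiency (log2 difference 8.16 ± 0.44 (SE), limma adjusted p = 9.49e-05). BHLH38, at chr3:21084035-21085245, stood at 703 and 730.1 FPKM in double deficiency and was listed at 0 in both copper deficiency libraries, so that no fold is given. All 3 genes were close to silent with iron and among the well expressed genes of the leaf without it, with no overlap between the groups. BHLH101 was listed at 0 in all 8 libraries. The peptide gene IMA2 (chr1:17382998-17383830) stood at 1043 and 967 FPKM in double deficiency, against 0.927 and 3.0 FPKM in copper deficiency (log2 difference 8.50 ± 0.31 (SE), limma adjusted p = 2.2e-05). Its neighbour IMA1 stood at 682 and 704 FPKM in double deficiency, against 0 and 3.55 FPKM in copper deficiency (log2 difference 8.35 ± 0.68 (SE), limma adjusted p = 0.000395). IMA peptides act as signals of iron shortage between shoot and root. IMA3, on another chromosome, was named after its values were seen, as were PYE, BTS, NRAMP4 and IRT1 below. It had 542 and 577 FPKM in double deficiency, against 11.6 and 56.9 FPKM in copper deficiency.

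Repressors of the response rose as well. BTS, the leaf BRUTUS ubiquitin ligase that marks subgroup IVc factors for breakdown, had 238 and 215 FPKM in double deficiency, against 15.0 and 34.9 FPKM in copper deficiency (log2 difference 3.25 ± 0.38 (SE), limma adjusted p = 0.00127). Its relative BTSL1, mostly known from roots, had 15.3 and 17.2 FPKM in double deficiency and was listed at 0 in both copper deficiency libraries. PYE, a subgroup IVb repressor of iron transport and storage genes, had 48.7 and 47.9 FPKM in double deficiency, against 4.73 and 11.2 FPKM in copper deficiency. In BTS, BTSL1 and PYE both double deficiency libraries lay above both copper deficiency libraries. The subgroup IVc factors that act upstream, and URI, which is not of that subgroup, moved far less. BHLH115 had 53.5 and 59.4 FPKM in double deficiency, against 36.1 and 41.4 FPKM in copper deficiency (log2 difference 0.53 ± 0.11 (SE)), and BHLH34, BHLH104 and URI were also called higher. The calls of BHLH104, BHLH115 and URI were lost under median-ratio and quantile scaling. ILR3, also of subgroup IVc, stood at 94.8 and 94.6 FPKM in double deficiency, against 94.6 and 92.8 FPKM in copper deficiency (log2 difference 0.01 ± 0.07 (SE), limma adjusted p = 0.887). FIT, the root factor that pairs with subgroup Ib, had 0.850 and 0.856 FPKM in double deficiency, against 1.39 and 1.31 FPKM in copper deficiency. The factors MYB10 and MYB72 of the same list were too low to be tested. Of 20 regulators and peptides 16 were tested, 13 were called higher and none lower, and 9 were higher under all 4 scalings. Their median log2 difference was 2.90, against 0.41 over all genes. Median-ratio scaling called 10 higher and 1 lower, and quantile scaling 9 higher and 2 lower.

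Genes that reduce and move iron rose next. FRO3, the mitochondrial ferric reductase, had 247 and 249.9 FPKM in double deficiency, against 6.60 and 14.6 FPKM in copper deficiency (log2 difference 4.52 ± 0.30 (SE), limma adjusted p = 0.000207). NAS4, an enzyme that makes the iron and copper chelator nicotianamine, had 136 and 109.9 FPKM in double deficiency, against 10.7 and 16.2 FPKM in copper deficiency (log2 difference 3.12 ± 0.21 (SE)). ZIF1, which loads nicotianamine into vacuoles, had 171 and 166 FPKM in double deficiency, against 17.2 and 30.5 FPKM in copper deficiency. In each of the 3 the lowest double deficiency value was several times the highest copper deficiency value. OPT3, the phloem transporter that carries iron out of leaves, had 437 and 411 FPKM in double deficiency, against 48.4 and 81.6 FPKM in copper deficiency (log2 difference 2.73 ± 0.23 (SE), limma adjusted p = 0.000436). NRAMP4, which releases iron from vacuoles, had 136 and 135 FPKM in double deficiency, against 27.8 and 31.9 FPKM in copper deficiency. Genes known for root uptake also rose from a low level: FRO2, the root surface reductase, had 9.33 and 10.1 FPKM in double deficiency, against 0.466 and 0.916 FPKM in copper deficiency, and IRT1, the root iron importer, had 5.49 and 3.73 FPKM in double deficiency, against 0.265 and 0 FPKM in copper deficiency. Root markers also summed higher in double deficiency (57.7 and 39.8 FPKM) than in copper deficiency (19.1 and 12.6 FPKM), and their part in these values was not tested. The leaf veins' nicotianamine-metal transporters went down. YSL1 had 1.04 and 1.5 FPKM in double deficiency, against 5.36 and 4.68 FPKM in copper deficiency and YSL3 had 3.38 and 3.36 FPKM in double deficiency, against 6.91 and 11.6 FPKM in copper deficiency, both named as list members after their values were seen. IRT3, a zinc and iron importer, also fell. The plastid iron permease PIC1 (86.5 and 96.1 FPKM against 103 and 116 FPKM) and the plastid transporter IREG3 (35.4 and 42.5 FPKM against 30.9 and 38.0 FPKM) and the reductase FRO8 (22.8 and 21.9 FPKM against 17.1 and 22.1 FPKM) were not called. Of 29 genes 25 were tested, 15 were called higher and 3 lower, with 10 and 6 under median-ratio scaling, 8 and 5 under quantile scaling, and 8 and 3 under all 4 scalings.

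Genes that mark iron sufficiency fell. FER1, the main leaf ferritin, had 8.64 and 7.82 FPKM in double deficiency, against 75.7 and 54.3 FPKM in copper deficiency (log2 difference -2.82 ± 0.25 (SE), limma adjusted p = 0.000521). FER4, a ferritin of plastids and mitochondria, was listed at 0 in both double deficiency libraries and had 21.7 and 17.3 FPKM in copper deficiency. FER3, the ferritin gene with the flattest profile, had 14.7 and 18.4 FPKM in double deficiency, against 20.3 and 17.3 FPKM in copper deficiency (log2 difference -0.18 ± 0.24 (SE), limma adjusted p = 0.568). NEET, an iron-sulfur protein of plastids and mitochondria at chr5:21009347-21010345, had 1.08 and 0.247 FPKM in double deficiency, against 272 and 129.7 FPKM in copper deficiency (log2 difference -6.87 ± 0.38 (SE), limma adjusted p = 0.000106). VTL1, a vacuolar iron transporter-like gene, had 0.144 and 0.297 FPKM in double deficiency, against 3.03 and 2.43 FPKM in copper deficiency, and NAS3, a nicotianamine synthase that is high with ample iron, had 0.497 and 1.17 FPKM in double deficiency, against 7.27 and 4.37 FPKM in copper deficiency. Among these genes FER3 was the one whose groups overlapped. Of 12 storage genes 8 were tested, 6 fell and none rose, and 6 fell under all 4 scalings. The median log2 difference was -1.75.

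**Figure D1:**
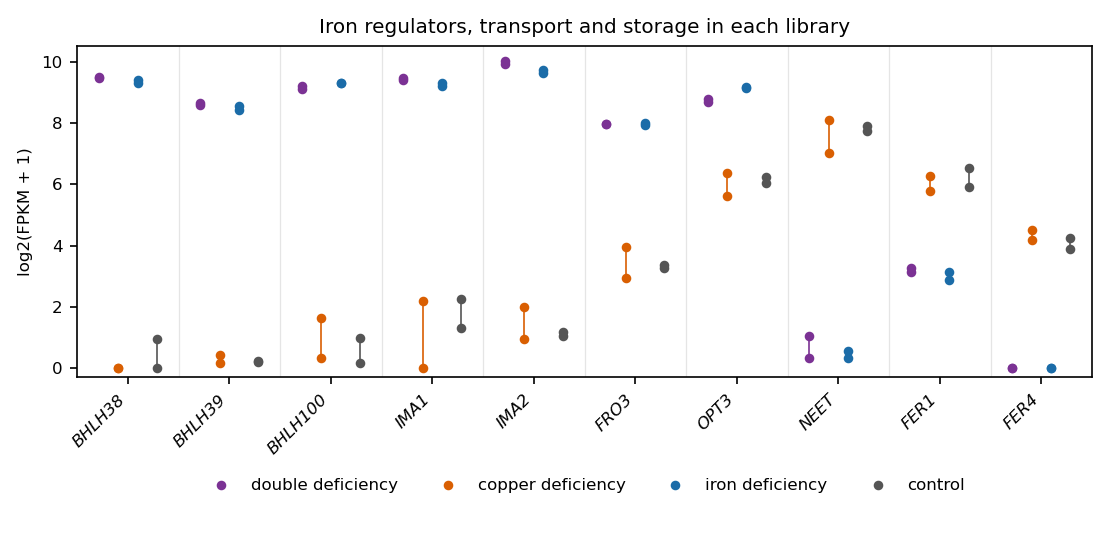
log2(FPKM + 1) of iron regulators, transport and storage genes in each library, with the groups side by side for each gene (double deficiency, copper deficiency, iron deficiency, control) and 1 point per library. The regulators of subgroup Ib and the IMA peptides lie at the bottom of the scale with iron and near the top without it, and FER1 and NEET lie the other way.

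Superoxide dismutases remove superoxide in the plastid stroma and in the cytosol, and plants choose between the iron enzyme and the copper/zinc enzymes by metal supply. Sequences of miR398, which targets the copper/zinc side, and its best ungapped pairing sites in CSD1, CSD2 and CCS are given from the reference genome. In the microRNAs capitals mark the seed (bases 2 to 8), which all 3 share, and in the sites capitals mark bases in Watson-Crick pairing with miR398b-3p.
miR398a-3p: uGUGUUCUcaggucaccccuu
miR398b-3p: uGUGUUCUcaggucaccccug
miR398c-3p: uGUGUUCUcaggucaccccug
CSD1 site: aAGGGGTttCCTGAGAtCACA
CSD2 site: tgcGGGTGACCTGgGAAacat
CCS site: attGGGaGACCTGgGAACACt

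miR398a-3p lies at chr2:1041012-1041032, and miR398b-3p and miR398c-3p, which are identical in sequence, at chr5:4691107-4691127 and chr5:4694778-4694798. The CSD1 site (chr1:2827177-2827685, plus strand) is split by an intron and has 17 Watson-Crick pairs of 21. The CSD2 site (chr2:12015572-12015592, plus) has 13 pairs and 3 G-U pairs, and the CCS site (chr1:4267521-4267541, minus) 15 pairs and 1 G-U pair. By the penalty used here, 1 per mismatch and 0.5 per G-U pair, 9 of 31342 genes had a site at or below the CSD1 score of 4, but 491 had one at or below that of CCS (5.5) and 3822 at or below that of CSD2 (6.5), so the scan alone does not single out CCS and CSD2. Mature miR398 was not analysed here.

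FSD1, the plastid iron superoxide dismutase at chr4:12884300-12887011, was the gene with the deepest fall of all nuclear coding genes above 0 in every library. It stood at 0.327 and 0.894 FPKM in double deficiency, against 734 and 711 FPKM in copper deficiency (log2 difference -8.83 ± 0.36 (SE), limma adjusted p = 3.35e-05). Copper-starved leaves with iron thus held it among abundant transcripts, and both libraries without iron stood near 1 FPKM or below. FSD2 and FSD3, the iron dismutases of the plastid nucleoid, did not follow it: FSD2 had 15.0 and 16.6 FPKM in double deficiency, against 15.2 and 13.1 FPKM in copper deficiency (log2 difference 0.16 ± 0.11 (SE), limma adjusted p = 0.293) and FSD3 had 35.7 and 34.4 FPKM in double deficiency, against 32.7 and 27.8 FPKM in copper deficiency (log2 difference 0.21 ± 0.11 (SE), limma adjusted p = 0.157). Neither was called, and under median-ratio scaling their differences were -0.27 and -0.23. The copper/zinc side rose although copper was withheld in both groups. CSD1, the cytosolic enzyme, had 688 and 599 FPKM in double deficiency, against 301 and 349 FPKM in copper deficiency (log2 difference 0.98 ± 0.13 (SE), limma adjusted p = 0.00182). CSD2, the plastid enzyme, had 711 and 738 FPKM in double deficiency, against 322 and 355 FPKM in copper deficiency (log2 difference 1.1 ± 0.18 (SE), limma adjusted p = 0.00441). CCS, which hands copper to both, had 184 and 181 FPKM in double deficiency, against 57.0 and 71.0 FPKM in copper deficiency (log2 difference 1.51 ± 0.17 (SE), limma adjusted p = 0.00119). In CSD1, CSD2 and CCS both libraries of double deficiency lay above both of copper deficiency. CSD1 and CCS were called under all 4 scalings, while CSD2 stood at 0.64 under median-ratio scaling (limma adjusted p = 0.0525). The peroxisomal CSD3 (86.6 and 80.8 FPKM against 63.4 and 71.4 FPKM) and the mitochondrial manganese enzyme MSD1 (216 and 206 FPKM against 165 and 205 FPKM) were not called. Of 9 genes of this set, 8 were tested, 3 rose and 1 fell.

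Genes of the copper shortage response gave no common movement. SPL7, the regulator itself, had 10.4 and 9.23 FPKM in double deficiency, against 4.82 and 6.08 FPKM in copper deficiency (log2 difference 0.75 ± 0.15 (SE), limma adjusted p = 0.0083), and COPT2, a copper importer that SPL7 switches on, had 10.4 and 12.7 FPKM in double deficiency, against 5.11 and 6.22 FPKM in copper deficiency (log2 difference 0.91 ± 0.29 (SE), limma adjusted p = 0.0435). Both were called as deposited, but not under median-ratio scaling, and the call of COPT2 was lost without any 1 of the 4 libraries compared. CCH, a cytosolic copper chaperone, fell to 137 and 137 FPKM in double deficiency, against 203 and 275 FPKM in copper deficiency (log2 difference -0.78 ± 0.14 (SE), limma adjusted p = 0.00619). FRO4, a copper reductase whose reads may be shared with its near copy FRO5, had 1.11 and 2.27 FPKM against 2.83 and 2.86 FPKM. It was not called as deposited, but was called lower under median-ratio and under quantile scaling. CITF1, the partner of SPL7, stood under 1 FPKM in every library and was not tested. Of 20 genes of this response 8 were tested, 4 were called higher and 2 lower, with 0 and 3 under median-ratio and under quantile scaling and 0 and 2 under all 4 scalings. Their median was 0.43, against 0.41 over all genes. The precursors of miR397, miR398, miR408 and miR857 were listed at 0 in nearly all libraries and were not tested. Among genes that deliver copper within the cell, HMA5, a copper pump best known from roots, had 6.25 and 6.52 FPKM in double deficiency, against 0.378 and 0.465 FPKM in copper deficiency (log2 difference 2.38 ± 0.18 (SE), limma adjusted p = 0.000292). HCC2, a mitochondrial relative of copper assembly factors of cytochrome oxidase, had 19.9 and 20.2 FPKM in double deficiency, against 3.34 and 6.27 FPKM in copper deficiency (log2 difference 1.91 ± 0.25 (SE)). Both were called higher under all 4 scalings. RAN1, the pump that loads ethylene receptors, had 20.5 and 18.3 FPKM against 11.8 and 11.2 FPKM, and its call was lost under median-ratio and quantile scaling. The plastid copper pumps PAA1 (57.7 and 65.4 FPKM against 64.1 and 73.0 FPKM) and PAA2 (21.7 and 22.0 FPKM against 26.4 and 26.4 FPKM) were not called as deposited. Both were called lower under median-ratio and under quantile scaling. Of 10 delivery genes 9 were tested and 5 were called higher, none lower, as deposited, but median-ratio and quantile scaling each called 2 higher and 2 lower. The median of the delivery genes was 0.44, against 0.41 over all genes.

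Plastocyanin, the copper protein between cytochrome b6f and photosystem I, is coded by PETE1 and PETE2. PETE2, the more abundant, had 1221 and 1319.5 FPKM in double deficiency, against 3334 and 4289 FPKM in copper deficiency (log2 difference -1.57 ± 0.17 (SE), limma adjusted p = 0.000939). PETE1 had 355 and 339 FPKM in double deficiency, against 458 and 439 FPKM in copper deficiency (log2 difference -0.37 ± 0.10 (SE), limma adjusted p = 0.0293), a call that held in neither every scaling nor every set of 7 libraries. Of the 11 copper proteins of the list, laccases included, 8 were tested, none rose and 2 fell.

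**Figure D2:**
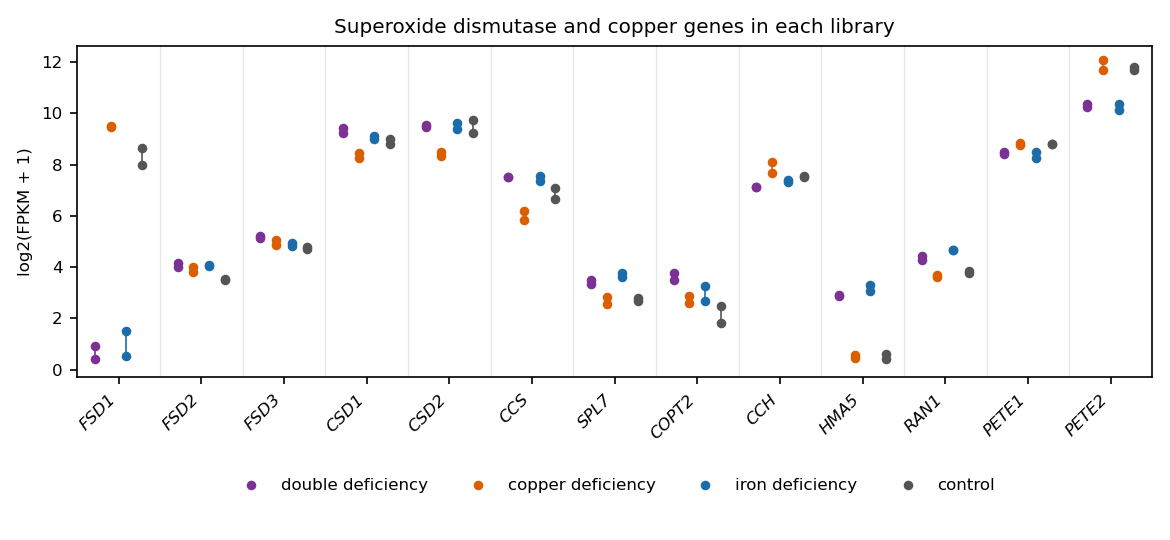
log2(FPKM + 1) of superoxide dismutases, their chaperone and copper genes in each library, with double deficiency, copper deficiency, iron deficiency and control side by side for each gene and 1 point per library. FSD1 is near 0 in both groups without iron and highest in copper deficiency, while CSD1, CSD2 and CCS are lowest in copper deficiency.

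Photosystem I, the largest iron-sulfur complex of the thylakoid, lost transcripts of nearly all its nuclear subunits. PSAN, a lumen subunit near the plastocyanin dock at chr5:25628521-25629708, had 253 and 288 FPKM in double deficiency, against 3509 and 3996 FPKM in copper deficiency (log2 difference -3.79 ± 0.21 (SE), limma adjusted p = 9.95e-05). PSAF, which forms that dock, had 589.7 and 644 FPKM in double deficiency, against 3966 and 4174 FPKM in copper deficiency (log2 difference -2.72 ± 0.19 (SE)). PSAD2, the ferredoxin docking subunit, had 447 and 479 FPKM in double deficiency, against 2684 and 2190.2 FPKM in copper deficiency (log2 difference -2.39 ± 0.17 (SE)). In PSAN, PSAF and PSAD2 the lower copper deficiency library lay above the higher double deficiency library. PSAD1, the second gene for the same subunit, had 694 and 758 FPKM against 3098 and 3545 FPKM, and the antenna gene LHCA2 had 1297 and 1382 FPKM against 4338 and 4826 FPKM. Of 18 genes 17 fell and none rose, with a median log2 difference of -1.40, against 0.41 over all genes. Of these, 12 fell under all 4 scalings, and quantile scaling called 13. LHCA5, a scarce antenna gene, was the 1 not called (140.1 and 157 FPKM against 170.4 and 256 FPKM). Photosystem II, which holds little iron, moved alike: 24 of 25 genes fell, none rose, the median was -1.69, and 17 fell under all 4 scalings. PSBQ2 of the oxygen-evolving complex had 641 and 687 FPKM in double deficiency, against 3554 and 4360.2 FPKM in copper deficiency (log2 difference -2.57 ± 0.17 (SE), limma adjusted p = 0.000189). PSBTN, a small subunit, had 685 and 718 FPKM in double deficiency, against 3999.8 and 6173 FPKM in copper deficiency. LHCB2.4 and LHCB4.3, minor or lesser expressed antenna genes, had 215 and 261 FPKM against 2114 and 2300.1 FPKM and 9.94 and 17.0 FPKM against 88.7 and 85.6 FPKM. LHB1B1, an abundant antenna gene, had 422 and 332 FPKM in double deficiency, against 3882 and 4774 FPKM in copper deficiency, but 13.7% of the 50-base words of its transcripts occur in other genes as well, so its counting is uncertain. PSBS, the photoprotection subunit, was not called (1492 and 1726 FPKM against 1665 and 1799 FPKM).

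Among electron carriers the leaf ferredoxins, small iron-sulfur proteins that accept electrons from photosystem I, went opposite ways. FD2, the major one, had 369 and 406 FPKM in double deficiency, against 3027 and 2122 FPKM in copper deficiency (log2 difference -2.71 ± 0.22 (SE), limma adjusted p = 0.000394), and FD1, the minor one, had 1227 and 1356 FPKM in double deficiency, against 519 and 493 FPKM in copper deficiency (log2 difference 1.35 ± 0.14 (SE), limma adjusted p = 0.000989). Without iron FD1 was the higher of the pair in both libraries and with iron FD2 was. ENH1, a rubredoxin-like protein of plastids, had 3.87 and 4.39 FPKM in double deficiency, against 139 and 125 FPKM in copper deficiency (log2 difference -4.69 ± 0.27 (SE)). PETC, the Rieske iron-sulfur subunit of cytochrome b6f, had 796 and 902 FPKM in double deficiency, against 1801 and 2049 FPKM in copper deficiency, and FNR1, a ferredoxin reductase, had 410.2 and 441 FPKM in double deficiency, against 744 and 917 FPKM in copper deficiency. Of 11 carriers 2 rose and 4 fell, with 1 and 7 under median-ratio scaling and 1 and 6 under quantile scaling. FD1 rose and these 4 fell under all 4 scalings.

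Chlorophyll and heme share a pathway whose first committed step is glutamyl-tRNA reductase. HEMA1, the leaf gene for that step at chr1:21623700-21626402, had 16.0 and 21.6 FPKM in double deficiency, against 318 and 274 FPKM in copper deficiency (log2 difference -3.92 ± 0.23 (SE), limma adjusted p = 0.000134), and HEMA2, its second gene, had 6.18 and 6.60 FPKM against 6.58 and 4.88 FPKM and was not called. PORB, a light-dependent protochlorophyllide reductase, had 95.8 and 97.7 FPKM in double deficiency, against 494 and 523 FPKM in copper deficiency (log2 difference -2.38 ± 0.15 (SE)). DVR, which reduces the vinyl side chain of chlorophyll precursors, had 27.5 and 30.8 FPKM in double deficiency, against 83.4 and 72.8 FPKM in copper deficiency. CHLH, the large subunit of magnesium chelatase, had 223 and 229 FPKM in double deficiency, against 576 and 541 FPKM in copper deficiency. HEMA1, PORB, DVR and CHLH were each lower in both double deficiency libraries than in both copper deficiency libraries. PORA, another protochlorophyllide reductase, fell at a low level, with 0.168 and 0.138 FPKM against 3.81 and 4.49 FPKM. Of 28 genes 27 were tested, 18 fell and none rose, and 15 fell under all 4 scalings, with a median of -0.53. Median-ratio scaling called 24 lower, quantile scaling 22, and scaling to nuclear protein-coding genes 2 higher and 15 lower. In the heme branch, values as deposited changed little: ferrochelatase FC1 had 22.8 and 23.2 FPKM against 19.4 and 19.4 FPKM and FC2 had 57.4 and 63.9 FPKM against 55.7 and 62.7 FPKM, neither called. All members tested, FC1 and FC2 included, lay below the all-gene median of 0.41. CRD1, the cyclase that itself holds iron, had 1344 and 1446 FPKM against 1776 and 1728 FPKM and was not called as deposited. In chlorophyll breakdown NYC1, the chlorophyll b reductase, had 2.76 and 3.10 FPKM in double deficiency, against 41.4 and 38.1 FPKM in copper deficiency (log2 difference -3.37 ± 0.13 (SE), limma adjusted p = 2.49e-05). The chlorophyllase CLH2 had 21.5 and 25.6 FPKM in double deficiency and was listed at 0 in both copper deficiency libraries. SGR1, the magnesium dechelatase, rose to 33.2 and 39.9 FPKM in double deficiency, against 14.2 and 17.1 FPKM in copper deficiency. Of 10 breakdown genes 5 rose and 2 fell, beside 39.4% and 6.40% of all genes tested. Their median was 0.27, against 0.41 over all genes. The counts were 2 and 4 under median-ratio and under quantile scaling and 2 each way under all 4 scalings.

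Iron-sulfur clusters are built by separate machines in plastids and in mitochondria, with another set of proteins for the cytosol. SUFB, the scaffold of the plastid machine, had 14.7 and 19.3 FPKM in double deficiency, against 80.9 and 67.1 FPKM in copper deficiency (log2 difference -2.06 ± 0.17 (SE), limma adjusted p = 0.000446). Its partners SUFC (51.1 and 56.1 FPKM against 60.4 and 60.9 FPKM) and SUFD (52.3 and 59.2 FPKM against 46.8 and 51.3 FPKM) were not called, and the carriers GRXS16 (42.3 and 49.0 FPKM against 65.5 and 77.7 FPKM) and HCF101 (55.4 and 59.7 FPKM against 72.9 and 84.0 FPKM) fell by less. NFS1, the mitochondrial cysteine desulfurase that supplies sulfur, had 129 and 130.3 FPKM in double deficiency, against 48.4 and 40.1 FPKM in copper deficiency (log2 difference 1.53 ± 0.11 (SE), limma adjusted p = 0.00029). DRE2 and TAH18, which pass electrons to the cytosolic machine, had 44.6 and 46.6 FPKM against 19.5 and 24.9 FPKM and 9.11 and 8.34 FPKM against 4.21 and 3.94 FPKM, and NBP35, its scaffold, had 53.5 and 56.4 FPKM against 31.2 and 23.1 FPKM. NFS1, DRE2, TAH18 and NBP35 were all higher in both libraries without iron. In the plastid set 13 of 14 genes were tested, 1 rose and 3 fell, with a median of -0.18. In the mitochondrial and cytosolic set 12 of 15 were tested, 8 rose and none fell, with a median of 0.69. Median-ratio and quantile scaling each called none higher and 8 lower in the plastid set, and in the other set 4 higher and 1 lower, and 5 higher and 2 lower. Under all 4 scalings the counts were 0 higher and 3 lower in the plastid set, and 4 higher and 0 lower in the other. The difference between the sets was not tested.

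Enzymes of the Calvin-Benson cycle, which fixes carbon and needs little iron, fell less than the photosystems. RPE, a pentose phosphate epimerase, had 249 and 271 FPKM in double deficiency, against 624 and 607 FPKM in copper deficiency (log2 difference -1.24 ± 0.12 (SE), limma adjusted p = 0.00069), FBA2, an aldolase, had 997 and 1126 FPKM against 2099 and 2105 FPKM, and SBPASE, a phosphatase of the regenerative phase, had 305 and 342 FPKM against 553 and 710.1 FPKM. RBCS1A, the most abundant small subunit gene of Rubisco, had 12824 and 14438 FPKM in double deficiency, against 17592 and 14518 FPKM in copper deficiency and was not called. Of 18 genes 12 fell and none rose, 7 under all 4 scalings, with a median of -0.67, against -1.40 in photosystem I. The difference between these lists was not tested. Some regulators of plastid genes rose. CGA1, a GATA factor, had 31.9 and 34.8 FPKM in double deficiency, against 0.908 and 1.72 FPKM in copper deficiency (log2 difference 3.91 ± 0.19 (SE), limma adjusted p = 6.6e-05). HY5, a light-signalling factor, had 29.7 and 34.5 FPKM in double deficiency, against 6.20 and 8.84 FPKM in copper deficiency, and SIG5, a stress-induced sigma factor of the plastid polymerase, had 146 and 186 FPKM in double deficiency, against 39.9 and 43.1 FPKM in copper deficiency. SIG1, the general sigma factor, fell to 43.7 and 50.4 FPKM in double deficiency, against 101 and 107 FPKM in copper deficiency (log2 difference -1.13 ± 0.14 (SE), limma adjusted p = 0.00145). GLK1 (157 and 166 FPKM against 199.7 and 239 FPKM) and GLK2 (172 and 171 FPKM against 159.9 and 206 FPKM), which drive antenna genes, were not called. Of 14 regulators 6 rose and 2 fell, beside 39.4% and 6.40% of all genes tested, and their median was 0.16, against 0.41 over all genes. The counts were 3 and 5 under median-ratio scaling, 4 and 4 under quantile scaling, and 3 and 2 under all 4 scalings.

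**Figure D3:**
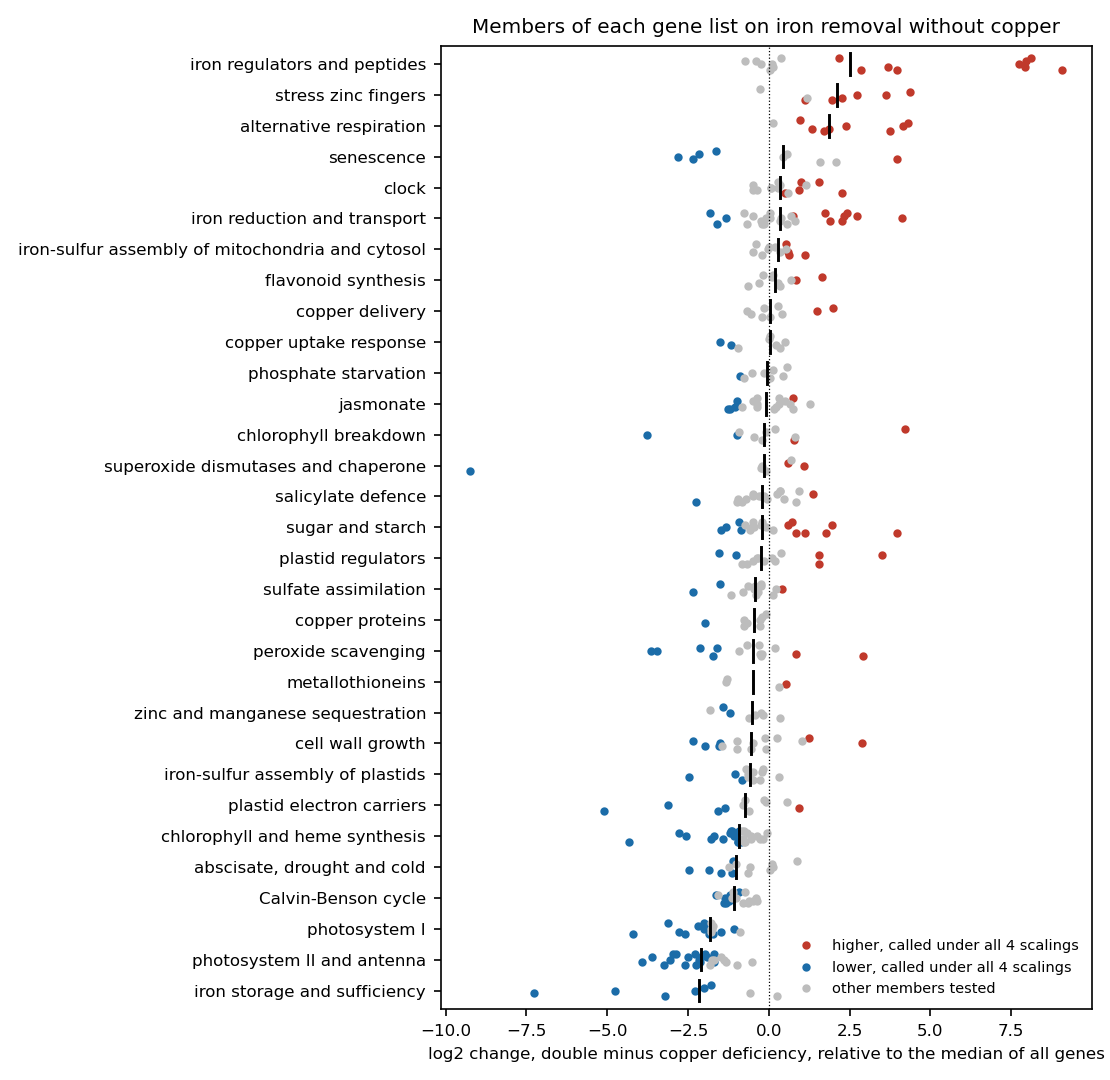
Members of each gene list by their log2 difference between double and copper deficiency, relative to the all-gene median, with 1 point per member tested and colours for members called under all 4 scalings. Iron regulators, stress zinc fingers and alternative respiration lie to the right, and the photosystems and iron storage genes to the left.

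Catalases and ascorbate peroxidases are heme enzymes that remove hydrogen peroxide. CAT3, a catalase of veins and green tissue, had 250.5 and 219 FPKM in double deficiency, against 2202 and 1722 FPKM in copper deficiency (log2 difference -3.05 ± 0.21 (SE), limma adjusted p = 0.000217), SAPX, a plastid ascorbate peroxidase, had 5.78 and 5.83 FPKM in double deficiency, against 64.2 and 62.4 FPKM in copper deficiency (log2 difference -3.24 ± 0.10 (SE)), and APX1, the cytosolic ascorbate peroxidase, had 133 and 124 FPKM in double deficiency, against 459 and 394 FPKM in copper deficiency (log2 difference -1.72 ± 0.16 (SE)). The thylakoid enzyme TAPX, named after its values were seen, had 34.8 and 39.6 FPKM against 82.4 and 90.9 FPKM. CAT2, the photorespiratory catalase and also heme-bound, was named after its values were seen: it rose to 930.0 and 1060.2 FPKM in double deficiency, against 495 and 348 FPKM in copper deficiency (log2 difference 1.26 ± 0.19 (SE), limma adjusted p = 0.00302). GPX7, a plastid glutathione peroxidase that needs no heme, had 58.1 and 71.3 FPKM in double deficiency, against 3.76 and 8.04 FPKM in copper deficiency (log2 difference 3.32 ± 0.29 (SE)). Of 15 genes 14 were tested, 3 rose and 5 fell, with 2 and 9 under median-ratio scaling and 2 and 5 under all 4 scalings.

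Zinc-finger factors of the ZAT and AZF group, which respond to reactive oxygen and many stresses, rose nearly throughout. ZAT12, at chr5:24102814-24103794, had 75.3 and 81.2 FPKM in double deficiency, against 1.73 and 2.1 FPKM in copper deficiency (log2 difference 4.77 ± 0.13 (SE), limma adjusted p = 8.63e-06). ZAT10 had 45.2 and 41.4 FPKM in double deficiency, against 4.51 and 3.57 FPKM in copper deficiency (log2 difference 3.14 ± 0.17 (SE)), and AZF3 had 28.6 and 28.1 FPKM in double deficiency, against 2.17 and 5.67 FPKM in copper deficiency. OXI1, a kinase activated by hydrogen peroxide, had 15.2 and 17.4 FPKM in double deficiency, against 0 and 0.0925 FPKM in copper deficiency. Of 9 genes in this list 8 were tested, 7 rose and none fell, 6 under all 4 scalings, with a median of 2.52 against 0.41 over all genes. Alternative respiration bypasses the copper and heme enzymes of the mitochondrial chain. AOX1A, the main alternative oxidase, which holds iron itself, had 409 and 454 FPKM in double deficiency, against 21.1 and 25.0 FPKM in copper deficiency (log2 difference 4.17 ± 0.12 (SE), limma adjusted p = 9.99e-06). UPOX, a mitochondrial protein raised by oxidative stress, had 468 and 488 FPKM in double deficiency, against 15.5 and 19.0 FPKM in copper deficiency (log2 difference 4.72 ± 0.12 (SE)). NDB4, an alternative NADH dehydrogenase, had 22.0 and 23.0 FPKM in double deficiency, against 0.00449 and 0 FPKM in copper deficiency. All these genes stood apart from copper deficiency in both libraries. Of 11 genes 9 were tested and all 9 of these rose, 8 of them under all 4 scalings, with a median of 2.27. Of 8 flower markers tested 7 were called higher, and of 8 dividing cell markers 2 were called higher and 1 lower, as given below. Their part in these values was not tested.

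Hormone and defence lists were mixed, beside 39.4% of all genes tested called higher and 6.40% lower. In the salicylate list PR1, a late defence gene, had 7.83 and 2.59 FPKM in double deficiency, against 19.8 and 18.7 FPKM in copper deficiency (log2 difference -1.85 ± 0.41 (SE), limma adjusted p = 0.0127), a call lost without the first copper deficiency library, while SAG101, a defence regulator that works with EDS1, had 16.3 and 20.8 FPKM in double deficiency, against 4.21 and 5.28 FPKM in copper deficiency (log2 difference 1.77 ± 0.16 (SE), limma adjusted p = 0.000605). Of 18 genes 4 were called higher and 2 lower, with 1 and 2 under median-ratio scaling, 1 and 4 under quantile scaling, and 1 each way under all 4 scalings. In the jasmonate list the synthesis genes AOS (183 and 160.3 FPKM against 275 and 239 FPKM) and AOC2 (126 and 95.3 FPKM against 174 and 211 FPKM) fell, and the repressor gene JAZ2 rose (55.5 and 48.0 FPKM against 23.3 and 22.0 FPKM). Of 19 genes 18 were tested, and 6 were called higher and 4 lower, beside 39.4% and 6.40% of all genes tested. The counts were 2 and 5 under median-ratio and under quantile scaling and 1 and 4 under all 4 scalings. Cold and drought genes gave more falls than rises. COR15B, a plastid protein of cold acclimation, had 8.22 and 10.2 FPKM in double deficiency, against 35.5 and 48.6 FPKM in copper deficiency (log2 difference -2.07 ± 0.18 (SE), limma adjusted p = 0.000487), and RD29A, a drought and cold marker, had 20.6 and 22.2 FPKM in double deficiency, against 71.7 and 51.3 FPKM in copper deficiency (log2 difference -1.46 ± 0.24 (SE)). NCED3, a key enzyme of abscisic acid synthesis, had 1.19 and 1.26 FPKM against 4.05 and 3.39 FPKM, though the call was lost without the first double deficiency library. Of 14 genes 13 were tested, 2 were called higher and 5 lower, with 1 and 8 under median-ratio scaling, 0 and 8 under quantile scaling, and 0 and 5 under all 4 scalings.

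The circadian clock is read here at 1 time of day only, so a level cannot be told apart from a phase. LHY, a morning factor, had 36.3 and 35.7 FPKM in double deficiency, against 4.84 and 4.69 FPKM in copper deficiency (log2 difference 2.68 ± 0.10 (SE), limma adjusted p = 2.74e-05), and its partner CCA1 had 104 and 109 FPKM in double deficiency, against 37.6 and 46.8 FPKM in copper deficiency (log2 difference 1.32 ± 0.14 (SE)). RVE8, a related activator, had 33.8 and 37.8 FPKM against 13.4 and 12.5 FPKM, and PRR5, an afternoon repressor, had 6.69 and 4.86 FPKM against 0.503 and 1.02 FPKM. LHY, CCA1, RVE8 and PRR5 lay higher in both double deficiency libraries. GI, an evening gene, had 7.51 and 10.1 FPKM against 9.34 and 9.43 FPKM and was not called. Of 16 clock genes 15 were tested, 10 rose and none fell as deposited, and 5 rose under all 4 scalings. Quantile scaling called 2 lower. Among all genes tested 39.4% rose as deposited and 14.3% under all 4 scalings.

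Genes of other nutrients were called in both directions, beside 39.4% of all genes tested called higher and 6.40% lower. In sulfate assimilation SIR, the sulfite reductase that carries heme and an iron-sulfur cluster, had 50.2 and 44.1 FPKM in double deficiency, against 124 and 85.3 FPKM in copper deficiency (log2 difference -1.11 ± 0.18 (SE), limma adjusted p = 0.00385), and LSU1, a gene induced by sulfur starvation, had 3.98 and 5.51 FPKM in double deficiency, against 23.8 and 18.6 FPKM in copper deficiency. Of 15 genes 14 were tested, 2 rose and 3 fell, with 1 and 6 under median-ratio scaling, 1 and 7 under quantile scaling, and 1 and 2 under all 4 scalings. Among phosphate starvation genes 8 of 12 were tested, with 2 higher and 1 lower, and among genes that sequester zinc and manganese 8 of 13, with 1 higher and 2 lower. In both lists median-ratio and quantile scaling each called none higher and 3 lower. Of 7 metallothioneins, small proteins that bind copper and zinc, 4 were tested. MT2A rose to 745 and 701 FPKM in double deficiency, against 372 and 384 FPKM in copper deficiency (log2 difference 0.93 ± 0.10 (SE), limma adjusted p = 0.000884), under all 4 scalings. MT2B (2267 and 1816 FPKM against 3343 and 4325 FPKM) and MT3 (1994 and 1954 FPKM against 3129.8 and 4317 FPKM) were lower, with calls lost under quantile scaling. In the flavonoid list 10 of 13 were tested and 3 rose, beside 39.4% of all genes tested. PAP1, a MYB activator of anthocyanin genes named after its values were seen, had 102 and 109 FPKM in double deficiency, against 28.1 and 21.9 FPKM in copper deficiency (log2 difference 2.04 ± 0.22 (SE)).

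Senescence genes were called both ways. SAG29, which is the sugar exporter SWEET15 and stands in both lists, had 61.0 and 63.5 FPKM in double deficiency, against 4.77 and 0.645 FPKM in copper deficiency (log2 difference 4.36 ± 0.52 (SE), limma adjusted p = 0.00144). NAP, a senescence factor, had 2.52 and 2.57 FPKM against 13.2 and 9.01 FPKM, SEN1, a marker of dark-induced ageing, had 2.28 and 2.46 FPKM against 11.8 and 11.9 FPKM, and DIN6, a dark-induced asparagine synthetase, had 1.44 and 0.402 FPKM against 9.04 and 8.63 FPKM. NAP, SEN1 and DIN6 fell under all 4 scalings. Of 10 genes 9 were tested, and 4 were called higher and 4 lower as deposited, beside 39.4% and 6.40% of all genes tested. Under all 4 scalings the counts were 1 and 4. Sugar transport was likewise divided. SUC1, a sucrose importer, had 128 and 125 FPKM in double deficiency, against 26.1 and 29.0 FPKM in copper deficiency (log2 difference 2.17 ± 0.11 (SE), limma adjusted p = 7.02e-05), and SWEET11, a phloem-loading exporter, had 102 and 111 FPKM in double deficiency, against 18.3 and 21.9 FPKM in copper deficiency (log2 difference 2.35 ± 0.17 (SE)). SUC2, the loader of companion cells that takes up what SWEET11 releases, fell to 34.4 and 36.5 FPKM in double deficiency, against 74.0 and 76.6 FPKM in copper deficiency (log2 difference -1.07 ± 0.11 (SE), limma adjusted p = 0.000764). Of 20 sugar and starch genes 7 rose and 4 fell, beside 39.4% and 6.40% of all genes tested. The counts were 7 and 8 under median-ratio and under quantile scaling and 7 and 4 under all 4 scalings. Expansins, which loosen growing walls, fell where called: EXPA8 had 35.8 and 35.2 FPKM in double deficiency, against 138 and 141 FPKM in copper deficiency, EXPA3 had 14.0 and 19.6 FPKM against 62.6 and 41.2 FPKM and EXPA5 had 41.2 and 40.6 FPKM against 97.4 and 82.7 FPKM. XTH22, a touch- and stress-induced xyloglucan enzyme, rose to 40.9 and 29.6 FPKM in double deficiency, against 2.4 and 2.93 FPKM in copper deficiency (log2 difference 3.29 ± 0.41 (SE), limma adjusted p = 0.00161). Of 15 wall genes 3 rose and 6 fell, with 2 and 7 under quantile scaling, 4 and 4 when scaled to nuclear protein-coding genes, and 2 and 4 under all 4 scalings.

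Genes were also ranked without regard to lists, among nuclear protein-coding genes of at least 300 bp above 0 FPKM in all 8 libraries. A gene entered only if called and if both double deficiency libraries lay on the same side of both copper deficiency libraries. The 10 largest rises held IMA2, BHLH39 and BHLH100, and 7 genes outside the lists. AT2G18193, a P-loop nucleoside triphosphatase, had 283 and 305 FPKM in double deficiency, against 0.592 and 0.526 FPKM in copper deficiency (log2 difference 7.56 ± 0.18 (SE), limma adjusted p = 4.99e-06). AT2G14247 had 365 and 349.7 FPKM in double deficiency, against 0.498 and 2.31 FPKM in copper deficiency (log2 difference 7.33 ± 0.35 (SE)). AT5G51440, a small heat-shock-like protein of the HSP20 type, had 188 and 196 FPKM in double deficiency, against 0.340 and 0.596 FPKM in copper deficiency (log2 difference 7.04 ± 0.12 (SE)). AT2G04070, a MATE efflux family gene, had 133 and 138 FPKM against 0.594 and 0.785 FPKM, AT2G41730 had 287 and 318 FPKM against 3.14 and 2.42 FPKM, AT1G12030 had 96.9 and 94.0 FPKM against 0.485 and 0.246 FPKM, and AT1G24580, a RING/U-box protein, had 253 and 329 FPKM against 4.04 and 2.38 FPKM. The 10 largest falls held FSD1, NEET, ENH1, HEMA1, PSAN, LHB1B1 and NYC1, all described above. AT3G55240 had 5.13 and 4.87 FPKM in double deficiency, against 81.7 and 109 FPKM in copper deficiency (log2 difference -3.99 ± 0.17 (SE), limma adjusted p = 3.49e-05), AT3G43670, a copper amine oxidase, had 0.240 and 0.283 FPKM in double deficiency, against 17.8 and 15.7 FPKM in copper deficiency (log2 difference -3.82 ± 0.15 (SE)), and COR413IM1, a cold-regulated protein of the plastid inner membrane, had 12.0 and 7.84 FPKM in double deficiency, against 131 and 159 FPKM in copper deficiency (log2 difference -3.76 ± 0.20 (SE)). These rankings describe the extremes of 1 comparison. Each of the 20 genes, called as deposited by the rule of entry, was called under the other scalings as well.

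Of all 38093 gene entries, 12202 and 12782 were listed at 0 in the copper deficiency libraries, against 10598 and 10530 in double deficiency. Listed at 0 in both copper deficiency libraries and above 0 in both double deficiency libraries were 700 nuclear coding genes, of which 171 were tested and called higher. Genes at 0 in a whole group passed the filter of 1 FPKM only through other libraries, so these calls are a description. AT1G32460 had 85.6 and 72.6 FPKM in double deficiency and AT2G20270, of the thioredoxin superfamily, had 74.3 and 72.8 FPKM. In the other direction 238 genes were listed at 0 in both double deficiency libraries, of which 64 were called lower, and PTAC13 (68.6 and 73.0 FPKM in copper deficiency), AT3G27050 (60.4 and 76.8 FPKM) and RAB1A (56.7 and 53.4 FPKM) had the highest levels among them. RAB1A is a small GTPase of the secretory route. An exact 0 can be a failed estimate in these values, and AT1G32460 stood at 0 and 0 FPKM against 0 and 0 FPKM (iron deficiency against control), AT2G20270 at 57.0 and 53.7 FPKM against 0 and 0 FPKM, PTAC13 at 51.1 and 59.3 FPKM against 69.6 and 74.0 FPKM, AT3G27050 at 0 and 0 FPKM against 66.0 and 58.2 FPKM and RAB1A at 0 and 0 FPKM against 46.6 and 51.9 FPKM.

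The same iron removal in copper-fed leaves (iron deficiency against control) shares no library with this comparison. Over the 17243 weighted genes tested, the log2 changes without and with copper had a Pearson correlation of 0.84, a description across genes, which are not independent replicates. List medians relative to the all-gene medians lay side by side without and with copper: 2.50 and 2.96 for iron regulators, -2.15 and -2.4 for iron storage, -1.81 and -1.62 for photosystem I, -2.09 and -1.71 for photosystem II, 1.87 and 1.52 for alternative respiration, and 2.11 and 0.95 for zinc fingers. Of the 38 lists 6 had medians of opposite sign: 0.43 without and -0.96 with copper for senescence, -0.52 and 0.37 for zinc and manganese sequestration, -0.11 and 0.53 for dividing cell markers, 0.21 and -0.29 for trichome markers, -0.22 and 0.05 for sugar and starch, and 0.03 and -0.21 for the copper uptake response. The differences between these medians were not tested. FSD1 changed by -8.83 ± 0.36 on the log2 scale without copper and by -7.30 ± 0.36 with it. It had 1.83 and 0.460 FPKM in iron deficiency, against 400.1 and 256 FPKM in control, so both groups without iron sat near 1 FPKM whatever the copper supply. CCS changed by 1.51 ± 0.17 without copper and by 0.60 ± 0.17 with it, CSD2 by 1.1 ± 0.18 and 0.03 ± 0.18, and CSD1 by 0.98 ± 0.13 and 0.15 ± 0.13 (SE). The interaction was not called in any of these, with limma adjusted p of 0.29 for FSD1, 0.212 for CCS, 0.192 for CSD2 and 0.156 for CSD1.

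**Figure D4:**
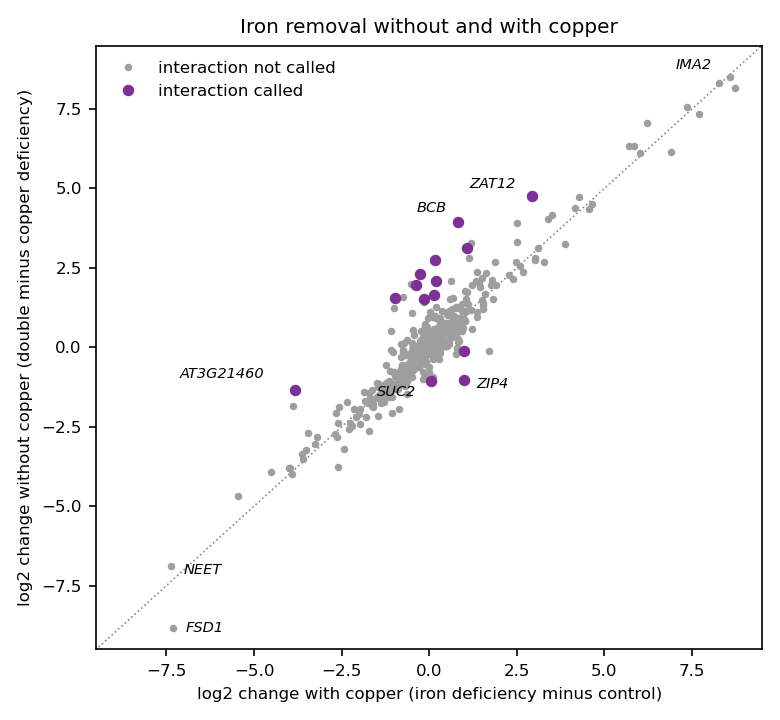
Log2 change on iron removal without copper (vertical, double minus copper deficiency) against that with copper (horizontal, iron deficiency minus control) for 445 list members and named genes above 0 FPKM in all libraries, with the dotted line marking equal changes. The 14 genes with a called interaction are drawn in purple, and most lie above the line.

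The interaction, which is the change without copper minus the change with copper, was called positive in 76 genes (0.396% of 19171) and negative in 37 (0.193%), and 2585 genes had an unadjusted p under 0.05. Of the 113 called genes 79 had a library at 0, and 34 were weighted nuclear coding genes, 31 positive (0.180% of 17243) and 3 negative (0.0174%). A positive term by itself favours high double deficiency and low copper deficiency values, so the shape of the 31 is a description. Of them 29 were highest in both double deficiency libraries, beside 34.0% of all 16812 weighted coding genes tested, and 26 had a copper deficiency mean below the control mean, beside 46.3%. Without copper 28 were called higher, beside 39.4% of all genes tested, and with copper 8 were called higher and 5 lower, beside 27.2% and 6.85%. BCB, a blue copper-binding protein of the cell surface at chr5:6826365-6827748, had the largest positive term. It stood at 209 and 199 FPKM in double deficiency, against 8.77 and 17.3 FPKM in copper deficiency, and at 71.9 and 62.3 FPKM in iron deficiency, against 32.3 and 43.1 FPKM in control (interaction 3.11 ± 0.42 (SE), limma adjusted p = 0.0438). Copper deficiency held the lowest values and double deficiency the highest. AT1G36622 had 7.38 and 8.72 FPKM against 0.385 and 0.287 FPKM without copper and 2.78 and 1.91 FPKM against 2.16 and 1.82 FPKM with it (interaction 2.61 ± 0.28 (SE), limma adjusted p = 0.02). AT2G25735 had 6.69 and 4.32 FPKM against 0.138 and 0.450 FPKM without copper and 0.971 and 1.19 FPKM against 1.59 and 1.44 FPKM with it. AT3G22600, a lipid-transfer-like protein, had 9.83 and 7.48 FPKM against 2.67 and 1.87 FPKM and 3.26 and 2.73 FPKM against 7.03 and 6.62 FPKM. AT3G21460, a glutaredoxin, differs in shape: it fell in both, to 7.59 and 7.79 FPKM in double deficiency, against 23.5 and 19.2 FPKM in copper deficiency, and to 0.302 and 0.507 FPKM in iron deficiency, against 19.6 and 18.4 FPKM in control (interaction 2.48 ± 0.21 (SE), limma adjusted p = 0.00544).

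Zinc-finger genes gave 3 of the positive terms. ZAT12 rose without and with copper, with 24.4 and 28.4 FPKM in iron deficiency, against 2.72 and 2.4 FPKM in control, beside the values above (interaction 1.82 ± 0.19 (SE), limma adjusted p = 0.0148). ZAT10 had 8.44 and 11.1 FPKM in iron deficiency, against 4.41 and 3.70 FPKM in control (interaction 2.06 ± 0.24 (SE), limma adjusted p = 0.028). ZAT6, named after its values were seen, had 8.94 and 8.16 FPKM in double deficiency, against 2.12 and 2.48 FPKM in copper deficiency, and 2.44 and 2.67 FPKM in iron deficiency, against 3.04 and 2.84 FPKM in control. In ZAT12, ZAT10 and ZAT6 the double deficiency libraries stood above the other 6. Also named after their values were seen, HSPRO2, a stress-response gene, had 51.1 and 52.4 FPKM against 14.7 and 10.7 FPKM without copper and 11.7 and 12.9 FPKM against 16.2 and 16.5 FPKM with it, GASA1, a gibberellin-regulated peptide, had 811 and 773 FPKM against 194 and 174 FPKM and 259 and 312 FPKM against 236 and 261 FPKM, and XTH24 had 323 and 315 FPKM against 117 and 86.3 FPKM and 150.0 and 146 FPKM against 139 and 131 FPKM. The 3 negative terms were ZIP4, SUC2 and AT4G13100. ZIP4, a zinc transporter, had 2.64 and 3.15 FPKM in double deficiency, against 7.61 and 6.22 FPKM in copper deficiency, and 11.0 and 10.8 FPKM in iron deficiency, against 4.85 and 5.16 FPKM in control (interaction -2.01 ± 0.20 (SE), limma adjusted p = 0.0148), so that it fell without copper and rose with it. SUC2 had 65.5 and 75.5 FPKM in iron deficiency, against 71.7 and 63.6 FPKM in control (interaction -1.12 ± 0.15 (SE), limma adjusted p = 0.0429). AT4G13100, a RING/U-box protein, had 19.5 and 21.2 FPKM against 21.8 and 22.7 FPKM and 28.3 and 30.4 FPKM against 14.5 and 13.8 FPKM. Adjusted p of the 34 lay between 0.00544 and 0.0486. In a fit of the weighted genes alone none was called (limma, lowest adjusted p 0.0593, with 2747 genes at an unadjusted p under 0.05), and of the 34 genes 1 and 0 remained called without the first or the second double deficiency library.

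**Figure D5:**
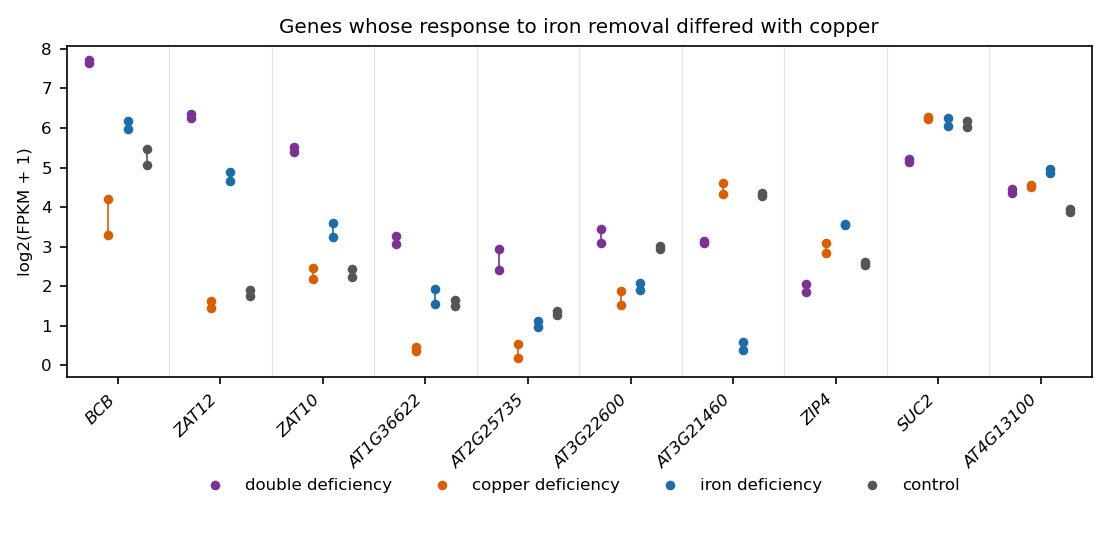
log2(FPKM + 1) in each library for genes named for the interaction, with double deficiency, copper deficiency, iron deficiency and control side by side and 1 point per library. In most genes the double deficiency points lie on top, and SUC2 and ZIP4 lie lowest in double deficiency.

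Markers of cell types were checked, since any of them could move with the groups. Their counts stand beside 39.4% of all genes tested called higher and 6.40% called lower. Mesophyll markers, which label the tissue as leaf, summed to 25335 and 27668 FPKM in double deficiency, against 52000.1 and 50122 FPKM in copper deficiency, and 3 of 4 fell, 1 of them under all 4 scalings. LHCB1.3 and LHCB2.1 of this list share 17% and 22.7% of their 50-base words with other genes, so their counting is uncertain. Guard cell markers summed to 1089 and 1105 FPKM in double deficiency, against 2078 and 2174 FPKM in copper deficiency, with 1 of 7 higher and 2 lower, and the sum rests largely on TGG1 (1024 and 1035 FPKM against 2025 and 2115 FPKM). Trichome markers summed to 8.37 and 9.84 FPKM in double deficiency, against 16.1 and 12.8 FPKM in copper deficiency, with 3 of 5 tested and 1 lower, and GL2, a defining one, was listed at 0 in every library. Companion cell and vein markers summed to 280.4 and 283 FPKM in double deficiency, against 244 and 258 FPKM in copper deficiency, with 2 of 8 higher and 1 lower as deposited, but 1 higher and 5 lower under median-ratio scaling and 1 and 6 under quantile scaling. Root markers summed to 57.7 and 39.8 FPKM in double deficiency, against 19.1 and 12.6 FPKM in copper deficiency, with 2 of 8 tested and both higher as deposited, but not under quantile scaling. PLT1, PLT2 and RHD6, defining root genes, stood near or at 0. Dividing cell markers summed to 144 and 154 FPKM in double deficiency, against 160.5 and 139 FPKM in copper deficiency, with 2 of 8 higher and 1 lower. CYCB1;1, a mitotic cyclin that also responds to DNA damage and was named after its values were seen, had 24.4 and 29.0 FPKM in double deficiency, against 0.714 and 0.664 FPKM in copper deficiency (log2 difference 4.03 ± 0.19 (SE), limma adjusted p = 6.14e-05), while CYCB1;2, its relative, had 4.85 and 3.72 FPKM against 5.35 and 1.98 FPKM and was not called. Flower markers summed to 71.5 and 70.2 FPKM in double deficiency, against 26.3 and 39.7 FPKM in copper deficiency, with 8 of 10 tested and 7 higher, 2 of them under all 4 scalings. SEP3, a floral identity factor named after its values were seen, had 4.04 and 3.62 FPKM in double deficiency, against 0.0153 and 0.260 FPKM in copper deficiency (log2 difference 2.09 ± 0.31 (SE), limma adjusted p = 0.00282). FT and AP3 were listed at 0 in both copper deficiency libraries, with 1.02 and 1.13 FPKM and 1.1 and 1.08 FPKM in double deficiency. The part of these cell types in the other results was not tested.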

How the data were processed

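RNA of rosette leaves was sequenced from unstranded libraries, so genes overlapping on opposite strands cannot be told apart. Per the submitters' processing notes, the tools were Trimmomatic, TopHat2 2.1.1, Cufflinks and Cuffdiff. The authors deposited FPKM per gene and library, as Cufflinks writes it, with no stated scaling. The genome build is not stated in these sources. Identifiers matched the TAIR10.1 reference in 99.2% of entries, of which 99.9% had the same start and end, and promoter and microRNA coordinates are those of TAIR10.1. Read totals are unknown. Relative depth was read from the authors' 95% bounds.

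Log2(FPKM + 1) of the 19171 genes that reached 1 FPKM in 2 or more of 8 libraries was fitted with limma 3.58.1 (R 4.3.3, eBayes with a trend, 4 residual degrees of freedom) in 1 model of 4 groups and was tested on simulated data. Errors of log2 values are standard errors. Genes under an adjusted p of 0.05 (Benjamini and Hochberg) are called. Unless a scaling is named, called and not called refer to the values as deposited. Repeats used other scalings, a pseudocount of 0.1, no filter or a minimum of 5 FPKM, the weighted genes alone, the 4 libraries compared, a replicate block, no trend, and each library left out.

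The members and the 38 gene lists (512 genes) were chosen with earlier results of these data known. The text names the 10 largest rises and falls, up to 5 members of each list by distance from the all-gene median, a panel of 30 metal and photosynthesis genes, the 5 largest interaction terms each way (3 were negative), and 3 genes listed at 0 each way. Phosphate, flavonoid, zinc and manganese, copper protein and marker lists are given mainly by counts. Other members given by value were picked after their values were seen.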

Additional observations from a re-analysis of the deposited data

Results flagged for a closer look

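In 14 named genes the change on iron removal without copper was called different from that with copper by the test of the difference itself, limma's interaction term, which all 8 libraries enter. Positive terms on the log2 scale were 3.11 for BCB, 2.61 for AT1G36622, 2.59 for AT2G25735, 2.53 for AT3G22600, 2.48 for AT3G21460, 2.34 for HSPRO2, 2.06 for ZAT10, 1.90 for GASA1, 1.82 for ZAT12, 1.68 for ZAT6 and 1.53 for XTH24. Negative terms were -2.01 for ZIP4, -1.13 for AT4G13100 and -1.12 for SUC2. ZIP4 fell without copper and rose with copper. AT3G21460 fell in both, and by less without copper. The terms of HSPRO2, GASA1, ZAT6 and XTH24 were picked from 34 called genes after their values were seen. None of these 14 calls held in a fit of the weighted genes alone (limma, adjusted p of at least 0.0593), and of the 34 genes 1 and 0 remained called without the first or the second double deficiency library. Groups of 2 libraries were not searched for outlying samples.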

How the results depend on the processing

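Against the 7552 higher and 1227 lower genes, median-ratio scaling called 3200 higher and 3113 lower, and quantile scaling 3047 and 3529. Leaving out 1 library gave 4424 to 7209 higher and 711 to 1195 lower. The other alternatives stayed within 1.5 times of both counts. The cause of these shifts was not tested, beyond the move of the all-gene median that both scalings make by construction. For the interaction, against 76 positive and 37 negative genes, the pseudocount of 0.1 FPKM gave 50 positive, the minimum of 5 FPKM gave 39 positive and 19 negative, the fit of weighted genes alone gave 0 and 0 (with 2747 genes at an unadjusted p under 0.05 in limma), and leaving out 1 library gave 41 to 100 positive and 23 to 40 negative.

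Same-numbered libraries did not deviate together (correlations of deviations from group means between -0.04 and 0.02), so they were not treated as pairs. The titles carry letters B and C in copper deficiency and A and B in the other groups. What the letters stand for is not stated, and no pairing by letter was fitted. With a replicate block, limma called 7355 genes higher and 1254 lower, and in the interaction 47 positive and 21 negative.

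The alternatives were followed for 193 named results. Among them FSD2 and FSD3, neither called, turned from higher to lower under median-ratio scaling (-0.27 and -0.23) and quantile scaling (-0.33 and -0.22). Members given by value outside the 193, such as ILR3 and FC1, were not checked for sign, and theirs may change as well. Within the 193, no other sign changed under any alternative. Calls lost numbered 9 under median-ratio scaling, 17 under quantile scaling, 22 without the filter on low values, and 30 and 31 without the first and the second double deficiency library. The number of 2 libraries per group and the FPKM unit, which hides read totals, limit the precision, and values under 1 FPKM carry little information.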
